A study of Arabidopsis thaliana with 20 samples.

Results

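Mitochondrion-encoded genes of Arabidopsis thaliana were examined in RNA sequenced from the aerial parts of plants carrying autoimmune gene pairs. They were taken as every row of the count table whose identifier starts with ATMG, which gave 152 of 32833 rows. Of these, 15 had no count in any library, 33 had counts but did not pass a filter on low counts, and 104 were tested. The choice used the identifier alone and no measured value. The annotation used here gives no name to an ATMG identifier directly: 53 of the 152 are named in notes on relatives in nuclear DNA. For 24 of these 53 the relative has a product other than an unknown protein, 20 of the 24 fell into a functional class, and the other genes are given by identifier and without a role. Class counts below cover these 20 genes only. A class follows the wording of a note on a relative, so a gene in a class need not encode a working subunit. Other ATMG genes may belong to the same classes, so a class count is not a count over the whole complex.

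The study compared lines in which a pair of DANGEROUS MIX (DM) genes, immune loci whose alleles trigger autoimmunity when combined, had been transformed into the reference accession Col-0. At 12 DAS, where DAS stands for days after sowing, 3 libraries of DM1-DM2d were compared with 2 of Col-0. At 14 DAS, 3 libraries of DM6-DM7 were compared with 3 of Col-0. A separate trio carried a CRISPR-Cas9 triple knockout of the helper receptor genes ADR1, ADR1-L1 and ADR1-L2, called adr1s. It consisted of Col-0 adr1s and of both DM pairs in that knockout, DM6-DM7 adr1s and DM1-DM2d adr1s, with 3 libraries per genotype and no age in the labels. All plants shared the Col-0 background, half-strength Murashige and Skoog medium with sucrose, and long days. The labels do not say how many transformed or edited lines stand behind a group, nor how many plants were pooled per library. These sets are 3 batches in the labels, and every comparison below stays inside one of them.

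Plant mitochondria keep a small genome that encodes a minority of the respiratory chain: some subunits of complex I, apocytochrome b of complex III, the core of complex IV, several subunits of the ATP synthase, proteins that attach heme to cytochrome c, and some ribosomal proteins. The remaining subunits, all of complex II, cytochrome c itself, and the polymerases and RNA-binding proteins that transcribe, edit and splice mitochondrial RNA are encoded in the nucleus. Col-0 also carries a large insertion of mitochondrial DNA on chromosome 2, so many mitochondrial genes have a near-identical nuclear copy. A read from such a gene cannot be assigned to one genome by its sequence, and values for these genes are uncertain in that respect.

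That limit can be read from the sequences themselves. Of 33 RefSeq mitochondrial coding genes, 23 matched chromosome 2 of TAIR10.1 over at least 95% of their length at 99% identity or more. The first 60 bases of the chromosome 2 copies of 4 genes that recur below are shown, because each has no mismatch to the RefSeq mitochondrial gene over that stretch. The coordinates are chr2:3450863-3450922 on the plus strand for cob (in AT2G07727), chr2:3312592-3312651 on the minus strand for cox3 (AT2G07687), chr2:3362505-3362564 on the plus strand for atp1 (AT2G07698) and chr2:3386292-3386351 on the plus strand for atp8 (AT2G07707). Capitals mark the start codon.
cob: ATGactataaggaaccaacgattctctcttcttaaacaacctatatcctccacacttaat
cox3: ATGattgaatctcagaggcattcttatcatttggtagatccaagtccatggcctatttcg
atp1: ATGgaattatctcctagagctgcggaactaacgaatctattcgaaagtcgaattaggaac
atp8: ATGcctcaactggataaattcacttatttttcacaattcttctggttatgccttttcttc

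The libraries held 48360933 to 127276992 counts. Summed levels of 5 shoot markers were above 0 in every group and lower in each DM line than in its Col-0 group, at 1303 to 1576 counts per 1000000 (CPM) in DM1-DM2d against 28536 to 29117 in Col-0 at 12 DAS. The 6 root markers summed to at most 1.65 CPM in any library. The edited ADR1 genes still gave counts in all adr1s libraries (8.68 to 67.7 CPM for ADR1, 29.7 to 126 for ADR1-L1 and 11.9 to 26.5 for ADR1-L2). A count does not show whether an edited gene makes a working protein, so this does not check the labels. In bulk tissue, fewer cells or mitochondria and less RNA in each cannot be told apart.

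The amount and the makeup of mitochondrial RNA differed most between batches. The 12 DAS libraries held 446293 to 977488 ATMG counts from 122 to 131 genes, the 14 DAS libraries 21488 to 40519 from 48 to 83 genes, and the adr1s libraries 17425 to 45871 from 60 to 79 genes. In the 12 DAS libraries ATMG01360 alone took 26.1% of ATMG counts, followed by ATMG00160 with 9.35% and ATMG00060 with 7.18%, as shares of counts not divided by gene length. In the other batches ATMG00020 and ATMG01390 together took 82.8% to 92.8% of ATMG counts, against 0.215% to 0.263% in the 12 DAS libraries. Because these 2 genes set the mitochondrial total in the 14 DAS and adr1s libraries, levels are given with and without them.

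At 12 DAS, ATMG counts lay higher in DM1-DM2d than in Col-0, by an amount that depended on the scale. ATMG genes took 0.937%, 0.882% and 0.916% of all counts in the 3 DM1-DM2d libraries and 0.497% and 0.515% in Col-0, a 1.80-fold difference. The means were 0.912% ± 0.0273 (SD, n = 3) and 0.506% ± 0.0126 (SD, n = 2). Plastid genes, however, took 10.9% ± 0.575 of counts in DM1-DM2d and 42.0% ± 0.23 in Col-0 (SD). Counted against nuclear counts only, the libraries had 99.8 to 107 ATMG counts per 10000 nuclear counts in DM1-DM2d and 86.2 to 89.8 in Col-0, a 1.17-fold difference with no overlap. The exact two-sided permutation test gave p = 0.1 on both scales, the smallest that groups of 3 and 2 allow (0.167 after Benjamini-Hochberg adjustment over 5 comparisons).

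In DM6-DM7 at 14 DAS, the ATMG share of all counts overlapped with that of Col-0: 0.0220%, 0.0232% and 0.0255% against 0.0348%, 0.0195% and 0.0259% (exact permutation p = 0.7). Without ATMG00020 and ATMG01390, the other 150 genes had 0.387 ± 0.00754 counts per 10000 nuclear counts in DM6-DM7 and 0.217 ± 0.0495 in Col-0 (SD, n = 3 each), 1.81-fold higher. The 3 DM6-DM7 libraries all lay above the 3 Col-0 libraries there (exact permutation p = 0.1, the smallest possible with 3 against 3, 0.125 adjusted). The 2 dominant genes had 1.97 counts per 10000 nuclear counts in DM6-DM7 and 2.46 in Col-0, with overlap (exact permutation p = 0.4).

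In the adr1s trio, DM1-DM2d adr1s had the most mitochondrial counts. Its share was 0.0660% ± 0.0103 of all counts, against 0.0431% ± 0.00625 in Col-0 adr1s and 0.0443% ± 0.00857 in DM6-DM7 adr1s (SD, 3 libraries each). Its 3 libraries lay above all libraries of either other group (exact permutation p = 0.1, adjusted 0.167), and DM6-DM7 adr1s overlapped with Col-0 adr1s (exact permutation p = 0.9). Without the 2 dominant genes the levels were 0.603 counts per 10000 nuclear counts, 0.321 in Col-0 adr1s and 0.402 in DM6-DM7 adr1s, a 1.87-fold difference between DM1-DM2d adr1s and Col-0 adr1s. DM6-DM7 adr1s overlapped with Col-0 adr1s on that scale too (1.23-fold, exact permutation p = 0.3).

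**Figure D1:**
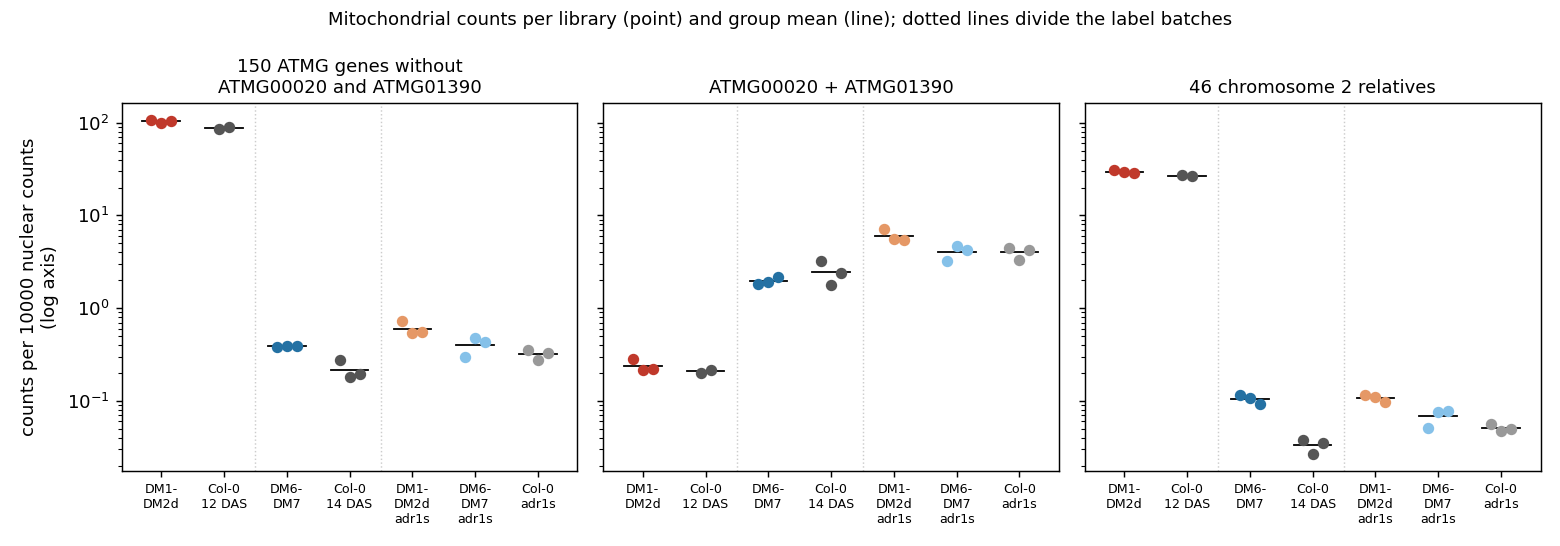
Counts per 10000 nuclear counts on a log axis, each library a point and each group mean a line, for the 150 other ATMG genes, for ATMG00020 with ATMG01390, and for the 46 chromosome 2 relatives. Dotted lines divide the batches. The 150 genes sit at 86.0 to 107 in the 12 DAS libraries and at 0.723 or less in all others, while the 2 dominant genes are lowest at 12 DAS.

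The counts were split unevenly between the 2 genomes. For 45 ATMG genes the table also has a row for the relative on chromosome 2, and these relatives carried 72.6% of the counts of the pairs at 12 DAS, 65.7% at 14 DAS and 69.8% in the adr1s trio. At 12 DAS, 23 of the 45 pairs had more counts on the nuclear row. For cob, the gene of apocytochrome b, 99.6% of the pair's counts fell on AT2G07727. The share was 95.2% for atp1, the alpha subunit of the ATP synthase, and 73.5% for cox3, a core subunit of complex IV, but 4.32% for atp8, a membrane subunit of the ATP synthase. How reads that match both places were counted is not given in the sources used here.

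**Figure D2:**
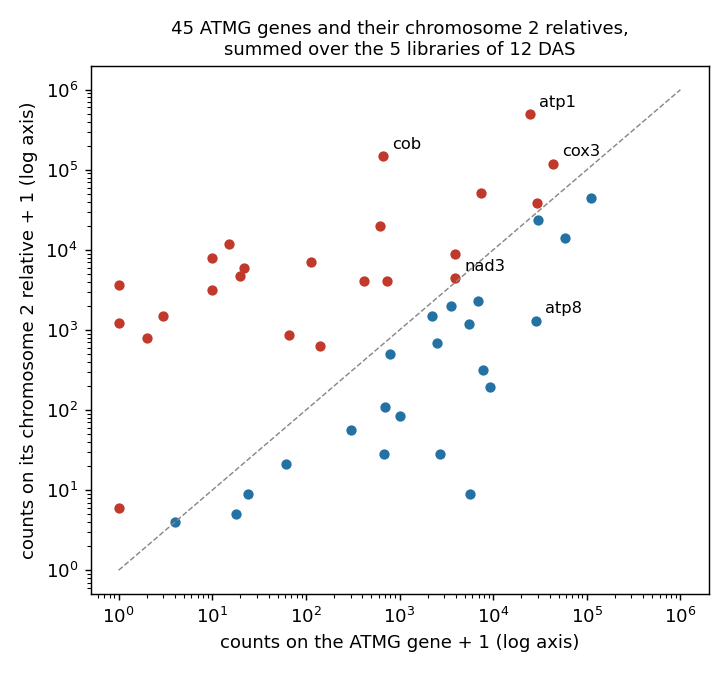
Counts plus 1 on 45 ATMG genes (horizontal) and on their chromosome 2 relatives (vertical), both on log axes and summed over the 5 libraries of 12 DAS. Red points above the diagonal had more counts on the relative, blue points more on the ATMG gene. The point of cob lies far above the diagonal and that of atp8 below it.

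Gene by gene, 21 ATMG genes passed as different between DM1-DM2d and Col-0 at 12 DAS, and nearly all of these were higher in DM1-DM2d. In edgeR's quasi-likelihood test on all genes, 20 of 104 ATMG genes were higher and 1 was lower at an adjusted p below 0.05. That is 20.2% of them, against 73% of all 23349 genes tested (36.6% higher and 36.4% lower). The median log2 difference of the 104 was 0.47, against 0.00 over all genes. The count rests on the fit of all 20 libraries. When the 12 DAS libraries were fitted alone, 41 of 102 ATMG genes were higher and 6 lower, against 80.4% of all genes (39.5% higher, 40.9% lower), so that the share called higher was near that of all genes and the share called lower was below it. The count of 21 was also 9 without DM1-DM2d replicate 1, and 7 and 6 without either Col-0 library. Upper-quartile scaling moved the median of all genes to -0.30 and left 7 ATMG genes higher and 2 lower.

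Both genes that the notes put in complex III were higher in DM1-DM2d. The ATMG00220 row (cob) had 244, 189 and 160 counts in DM1-DM2d and 44 and 30 in Col-0, a log2 difference of 1.97 ± 0.69 (SE, adjusted p = 0.0282, edgeR). ATMG00590, annotated as a cytochrome b/b6 protein, had 784, 700 and 659 counts against 178 and 180 (log2 1.54, adjusted p = 0.0448). It was matched to no RefSeq symbol, and its note does not show that it encodes a further subunit of the complex. The groups did not overlap for either gene, but both calls were lost when any 1 of the 5 libraries was left out (log2 1.66 to 2.17 for cob and 1.44 to 1.56 for ATMG00590). Since nearly all cob counts lie on chromosome 2, its pair was also summed: AT2G07727 had 43695, 36666 and 35468 counts against 18382 and 14082, and the sum of both rows differed by 0.81 ± 0.24 on the log2 scale (adjusted p = 0.00611). The sum was higher in DM1-DM2d by less than the ATMG row alone.

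Of the 2 genes that the notes put in complex IV, cox3 was higher. Its ATMG00730 row had 82.4, 199 and 120 CPM in DM1-DM2d and 43.4 and 84.3 in Col-0, so that the lowest DM1-DM2d library fell just below the higher Col-0 one (log2 1.07 ± 0.40, SE, adjusted p = 0.0242). Without DM1-DM2d replicate 2 it was 0.67 (adjusted p = 0.148) and without Col-0 replicate 1 it was 0.62 (adjusted p = 0.268). Its relative AT2G07687 had 36937, 27955 and 28585 counts against 13554 and 12734, with no overlap, and the summed pair differed by 0.86 ± 0.28 (adjusted p = 0.012). ATMG01280, annotated as resembling subunit II of the same complex, had 8590, 7029 and 7664 counts against 3444 and 3470. The groups of ATMG01280 did not overlap, but the difference did not pass the test (log2 0.71, adjusted p = 0.130).

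The 5 genes that the notes put in the ATP synthase went different ways: 1 was higher, 1 was lower and 3 did not pass. atp8 (ATMG00480) was the only ATMG gene called lower in DM1-DM2d against the whole library, at 67.1, 56.5 and 53.9 CPM against 82.2 and 123 in Col-0 (log2 -0.79 ± 0.30, SE, adjusted p = 0.0239). The call was lost without DM1-DM2d replicate 2 (-0.76) or 3 (-0.77) or Col-0 replicate 2 (-0.56, adjusted p = 0.208). All DM1-DM2d libraries lay below both Col-0 libraries, and the pair summed with AT2G07707 gave the same difference (-0.79 ± 0.29, adjusted p = 0.0234). atp1 (ATMG01190) had 74.1, 55.4 and 61.1 CPM against 71.3 and 54.8, a log2 difference of 0.01 (adjusted p = 0.969), and 0.28 when summed with its relative (adjusted p = 0.255). ATMG01090, annotated like subunit 9 that forms the rotor ring, had 3483, 1395 and 1409 counts against 744 and 710 (log2 1.06, adjusted p = 0.016), and did not pass without DM1-DM2d replicate 1 (0.53) or either Col-0 library (1.00 and 0.98). The other row tied to subunit 9, ATMG01080 (atp9), had 8843, 6643 and 5458 counts against 4694 and 4100, and its log2 difference of 0.21 did not pass (adjusted p = 0.634).

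None of the 3 genes that the notes put in complex I passed, and none of the 2 tested in cytochrome c maturation. The median log2 differences were 0.30 and 0.54. Unnamed ATMG genes are not covered by this. Of 4 ribosomal protein genes tested 1 was higher, ATMG00560, whose nuclear relative is annotated as a nucleic acid-binding protein (log2 0.90, adjusted p = 0.0134; 0.82 as a summed pair, adjusted p = 0.000379). Without either Col-0 library its ATMG row did not pass (0.92 and 0.75, adjusted p = 0.0578 and 0.116).

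Most of the genes called higher had no annotated name. ATMG00690 had 543, 497 and 547 CPM in DM1-DM2d and 210 and 241 in Col-0 (log2 1.23, adjusted p = 0.00227). ATMG00640 had 79.3, 53.1 and 56.0 CPM against 26.6 and 27.0 (log2 1.23, adjusted p = 0.000429). ATMG01360, the most counted ATMG gene of this batch, had 2851, 2618 and 2731 CPM against 1579 and 1635 (log2 0.77, adjusted p = 0.0388). All 3 were without overlap. None has a relative in the annotation notes, but a missing note does not show that a gene lacks a copy on chromosome 2. The call of ATMG01360 was lost when any 1 of the 5 libraries was left out (log2 0.69 to 0.80, adjusted p = 0.056 to 0.157). For ATMG00270 the largest difference of the set rested on 1 library: it had 1950, 99 and 90 counts against 30 and 15, and its log2 difference of 4.49 ± 1.51 (SE) was 1.66 without DM1-DM2d replicate 1 (adjusted p = 0.226). The call was also lost without either Col-0 library (4.96 and 4.01).

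**Figure D3:**
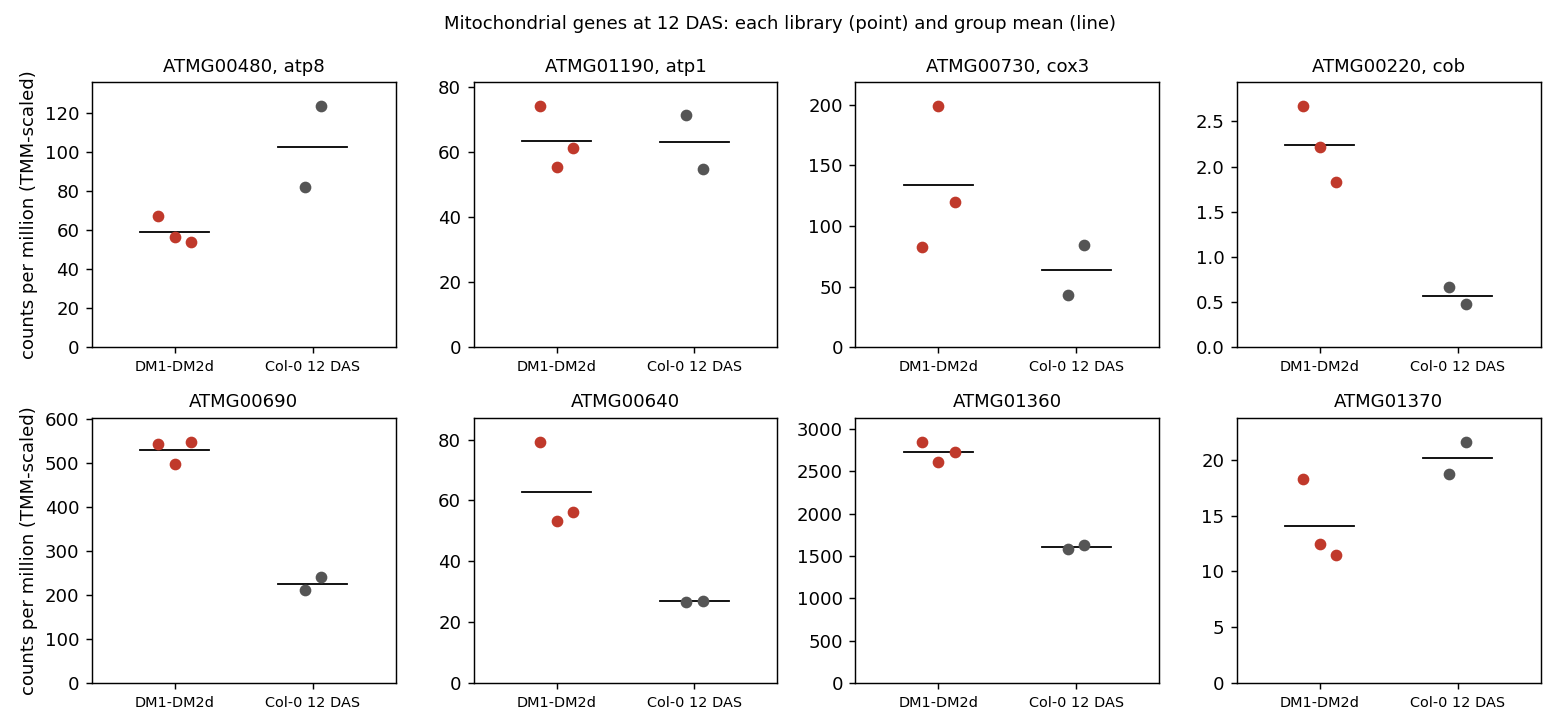
CPM (counts per 1000000) of 8 ATMG genes in the DM1-DM2d (red) and Col-0 (grey) libraries of 12 DAS, each library a point and each group mean a line, with axes from 0. The DM1-DM2d points of atp8 lie below both Col-0 points, those of cob, ATMG00690, ATMG00640 and ATMG01360 above them, and those of atp1 and cox3 overlap with Col-0.

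Set against the mitochondrial total of each library, the 12 DAS comparison asks which genes changed their share of ATMG counts. Here 2 genes were higher and 6 lower of 104, 7.69% of them, against 72.7% of all genes tested in the same way (35.1% higher, 37.5% lower), and the median log2 difference was -0.07. ATMG00690 rose from 3.12% and 3.38% of ATMG counts in Col-0 to 5.09%, 5.07% and 5.59% in DM1-DM2d (log2 0.69, adjusted p = 0.0253), and ATMG00270 was the other. atp8 fell from 1.22% and 1.73% to 0.629%, 0.577% and 0.551% (log2 -1.33 ± 0.30, SE, adjusted p = 0.000746). atp1 fell from 1.06% and 0.769% to 0.694%, 0.566% and 0.625% (log2 -0.54, adjusted p = 0.0209), on the few percent of its pair's counts that the ATMG row holds. The other 4 lower genes were ATMG01370 (-1.07), ATMG01010 (-1.41), ATMG00080 (-0.47) and ATMG00090 (-0.44). ATMG01360 held 26.7%, 26.7% and 27.9% against 23.4% and 23.0%, which did not pass (log2 0.22, adjusted p = 0.266). Leaving out 1 library ended several of these calls: ATMG00690 was at 0.63 and 0.75 without Col-0 replicate 1 or 2 and 0.64 without DM1-DM2d replicate 3, ATMG00270 at 1.14 without DM1-DM2d replicate 1 and at 4.44 and 3.45 without Col-0 replicate 1 or 2, and atp1 at -0.29 without Col-0 replicate 1 and -0.47 and -0.54 without DM1-DM2d replicate 2 or 3. ATMG00080 was lost without DM1-DM2d replicate 1 (-0.41) or Col-0 replicate 2 (-0.43), and ATMG00090 without Col-0 replicate 1 (-0.31). ATMG01010 was lost without any 1 of the 5 libraries (-1.53 to -1.29). Those of atp8 and ATMG01370 passed in each such fit. With the 12 DAS libraries fitted alone, 17 genes were higher and 21 lower, against 80.2% of all genes (39.2% higher, 41% lower).

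In DM6-DM7 at 14 DAS, 32 of the 104 ATMG genes were higher than in Col-0 and 3 were lower, 33.7% in all, against 64.8% of all genes (35% higher, 29.7% lower). The share called higher is thus near the background, and the share called lower is below it. The median log2 difference was 0.92, or 0.80 with the 16 genes listed at 0 in Col-0 set at a bound of 3 counts, against 0.06 over all genes. Counts were low: 46 of the 104 genes had a mean of at least 10 in these libraries, of which 17 were higher and 3 lower. When the 6 libraries were fitted alone, 10 of 46 genes passed, 8 of them higher, against 53.4% of all genes (26.8% higher, 26.6% lower).

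The 3 lower genes were ATMG00020, ATMG01390 and ATMG00030. ATMG00020 had 93.2, 100 and 116 CPM in DM6-DM7 and 204, 115 and 163 in Col-0 (log2 -0.64, adjusted p = 0.0155). ATMG01390 had 8272, 10462 and 10740 counts against 16926, 10433 and 11317 (log2 -0.62, adjusted p = 0.00781). Col-0 replicate 1 was the highest library for both, and by CPM the groups overlapped for ATMG00020 and not for ATMG01390. Without that library neither passed (-0.43, adjusted p = 0.0965, and -0.42, adjusted p = 0.0549). ATMG00030 (log2 -0.55) was lost without it too (-0.29), and without DM6-DM7 replicate 1 (-0.49).

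Among genes with more than a few counts, ATMG01220, whose relative is an unknown protein, had 181, 135 and 199 counts in DM6-DM7 and 38, 50 and 26 in Col-0 (log2 1.97, adjusted p = 1.57e-06). ATMG01170 had 151, 249 and 144 counts against 38, 68 and 41 (log2 1.65, adjusted p = 1.40e-05). ATMG01370 had 136, 129 and 139 against 39, 28 and 49 (log2 1.56, adjusted p = 0.000147). ATMG00690 had 206, 132 and 187 against 81, 60 and 36 (log2 1.38, adjusted p = 0.00193), and ATMG01360 had 271, 410 and 380 against 242, 80 and 119 (log2 1.03, adjusted p = 0.00738). In these 5 genes every DM6-DM7 library lay above every Col-0 library.

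The genes with a class that are given next had small numbers of reads on their ATMG rows. Both cytochrome c maturation genes tested were higher: ATMG00960, annotated as a cytochrome c assembly protein, had 10, 6 and 4 counts in DM6-DM7 and 0 in each Col-0 library, at least 5.86-fold higher against a floor of 3 counts over the group (adjusted p = 0.00302). ATMG00290, the ribosomal protein S4 gene, had 16, 18 and 4 counts against 0 in all Col-0 libraries, at least 10.8-fold higher (adjusted p = 0.000187). Among the ATP synthase genes, atp8 had 18, 6 and 13 counts against 0, 2 and 1 (log2 3.23, adjusted p = 0.00766) and atp1 had 8, 8 and 8 against 1, 0 and 1 (log2 3.09, adjusted p = 0.00319). No gene that the notes put in complex III or complex IV passed on its ATMG row. The summed pairs, most of whose counts lie on chromosome 2, were higher for cob (log2 2.15, adjusted p = 2.53e-05), atp1 (1.65, adjusted p = 8.70e-06) and cox3 (1.63, adjusted p = 0.00541). Of 41 summed pairs tested, 18 were higher and 0 lower at 14 DAS, against 64.8% of all genes in that fit (35% higher, 29.8% lower). At 12 DAS 5 were higher and 2 lower, against 73.1% of all genes (36.7% higher, 36.4% lower), so that both shares of the pairs lay below the background.

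Within the mitochondrial total, 42 of 104 genes were higher in DM6-DM7 and 0 lower, 40.4% against 63.9% of all genes (31.8% higher, 32.1% lower). ATMG01360 took 1.26%, 1.48% and 1.36% of ATMG counts in DM6-DM7 and 0.597%, 0.322% and 0.436% in Col-0 (log2 1.58, adjusted p = 5.45e-07). This split depends on what the total is made of. With ATMG00020 and ATMG01390 left out of it, 23 genes were higher and 8 lower, and with a trimmed mean scaling among ATMG genes 21 were higher and 10 lower.

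In the adr1s trio, DM1-DM2d adr1s had 18 of 104 ATMG genes higher than Col-0 adr1s and 0 lower, and DM6-DM7 adr1s had 2 higher and 0 lower. These are 17.3% and 1.92% of the genes, against 42.7% (23.9% higher, 18.8% lower) and 31.2% (18.6% higher, 12.6% lower) of all genes in the same comparisons. Counts were low here too: 35 and 34 of the 104 genes had a mean of at least 10, of which 16 and 2 were higher. With the trio fitted alone, 16 and 2 of 37 genes were higher. At an unadjusted p below 0.05, 25 and 7 genes passed. DESeq2 called 6 genes in the second comparison. No share of all genes is given for the minimum mean, the trio fitted alone, the unadjusted p or DESeq2. Those counts therefore cannot be set against a background. The median log2 differences were 0.73 and 0.27, against 0.03 and 0.02 over all genes. Both comparisons share the Col-0 adr1s libraries. Of the 18 genes, 8 passed without DM1-DM2d adr1s replicate 1 and 11 without Col-0 adr1s replicate 2. Of the 2 genes in DM6-DM7 adr1s, 0 passed without its replicate 2 or without Col-0 adr1s replicate 2, and 1 without its replicate 3.

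ATMG01360 had 350, 182 and 154 counts in DM1-DM2d adr1s, while DM6-DM7 adr1s had 74, 109 and 111 and Col-0 adr1s had 62, 51 and 62. The 3 groups did not overlap in CPM, and the first differed from Col-0 adr1s by 1.80 on the log2 scale (adjusted p = 0.000376), while the second did not pass (0.60, adjusted p = 0.209). ATMG01170 had 58, 57 and 37 counts, then 32, 38 and 29, then 14, 4 and 21. It was higher than Col-0 adr1s in both lines (log2 1.81, adjusted p = 0.000311, and 1.20, adjusted p = 0.0149). ATMG01200 had 32, 38 and 36 counts, then 15, 28 and 24, then 11, 4 and 16 (log2 1.62, adjusted p = 0.000304, and 0.97, adjusted p = 0.0297). Its DM6-DM7 adr1s libraries overlapped with Col-0 adr1s. In DM6-DM7 adr1s, ATMG01170 was at 1.12 and 0.83 without replicate 2 of either group, and ATMG01200 between 0.64 and 0.98 in the 4 fits that lost its call (replicate 2 or 3 of the line, replicate 1 or 2 of Col-0 adr1s). ATMG00690 had 121, 56 and 41 counts in DM1-DM2d adr1s and 13, 11 and 33 in Col-0 adr1s (log2 1.76, adjusted p = 0.00295). Replicate 1 of DM1-DM2d adr1s was the highest library of the trio for ATMG01360, ATMG00690 and ATMG00020.

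Among the 20 genes put in a class, complex I, the ATP synthase and the ribosomal proteins had 1 member each higher in DM1-DM2d adr1s. None of the 20 was higher in DM6-DM7 adr1s, where the 2 genes called, ATMG01170 and ATMG01200, have no annotated class. ATMG01320, annotated as subunit 2B of NADH dehydrogenase (complex I), had 24, 20 and 21 counts in DM1-DM2d adr1s and 8, 7 and 13 in Col-0 adr1s (log2 1.05, adjusted p = 0.0358), and did not pass in any fit without 1 of replicates 1 to 3 of that line or replicate 1 or 2 of Col-0 adr1s (0.92 to 1.04). ATMG00560 had 38, 18 and 29 counts against 18, 4 and 7 (log2 1.39, adjusted p = 0.0456), and did not pass without replicate 1 (1.13) or 3 (1.31) of that line or replicate 2 (1.07) or 3 (1.17) of Col-0 adr1s. For atp1, cob and cox3 the chromosome 2 rows were higher in DM1-DM2d adr1s (log2 1.04, 1.38 and 1.81, adjusted p = 0.00207, 0.00259 and 0.00963).

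Within the mitochondrial total, 8 genes were higher and 1 lower in DM1-DM2d adr1s (8.65%, against 42.9% of all genes, 22.5% higher and 20.4% lower), and 6 higher and 0 lower in DM6-DM7 adr1s (5.77%, against 31%, 18.5% higher and 12.5% lower). Among genes with a mean of at least 10 counts, 7 of 35 were higher and 1 lower in DM1-DM2d adr1s, and 6 of 34 higher in DM6-DM7 adr1s. The lower gene was nad3 (ATMG00990), a membrane subunit of complex I, at 0.0458%, 0.0761% and 0.0392% of ATMG counts against 0.178%, 0.115% and 0.0879% in Col-0 adr1s (log2 -1.26 ± 0.36, SE, adjusted p = 0.0109). It rested on 21, 23 and 12 counts against 50, 20 and 23, and without Col-0 adr1s replicate 1 it did not pass (-0.91, adjusted p = 0.0769). At 14 DAS nad3 had 0 counts in all libraries. ATMG01360, ATMG01170, ATMG01200 and ATMG01370 were higher within the total in each DM line of the trio (log2 1.34, 1.42, 1.24 and 1.18 for DM1-DM2d, and 0.75, 1.39, 1.13 and 0.99 for DM6-DM7). Of these, ATMG01370 lost its call without DM1-DM2d adr1s replicate 2 (0.82). In DM6-DM7 adr1s, ATMG01370 lost it in 4 fits without 1 library (replicate 1 or 2 of either group, 0.85 to 0.96) and ATMG01170 in 3 (replicate 1 of the line, 1.24, and replicate 1 or 2 of Col-0 adr1s, 1.33 and 1.13). With a trimmed mean scaling among ATMG genes the splits became 2 higher and 4 lower in DM1-DM2d adr1s and 0 higher and 4 lower in DM6-DM7 adr1s. With the 2 dominant genes left out of the total they were 6 and 3, and 1 and 3.

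Set directly against DM6-DM7 adr1s, DM1-DM2d adr1s had 5 ATMG genes higher and 0 lower (4.81%, against 8.91% of all genes, 5.42% higher and 3.49% lower). They were ATMG01360 (log2 1.19, adjusted p = 0.0269), ATMG00690 (1.43, adjusted p = 0.0343), ATMG00020 (0.82, adjusted p = 0.0259), ATMG00070 (0.46, adjusted p = 0.0413) and ATMG00720 (adjusted p = 0.0183), the last without a count in DM6-DM7 adr1s. Among genes with a mean of at least 10 counts, 4 of 35 were higher. Between 0 and 4 passed when 1 library was left out: 0 without DM6-DM7 adr1s replicate 1, 1 without its replicate 2 or without DM1-DM2d adr1s replicate 1, and 2 without DM6-DM7 adr1s replicate 3 or DM1-DM2d adr1s replicate 2. Without DM1-DM2d adr1s replicate 1, ATMG01360 was at 0.78, ATMG00690 at 0.88 and ATMG00020 at 0.50, none of them called. Within the mitochondrial total, ATMG00720 alone passed, and not when any 1 of the 6 libraries was left out (0.962%, against 9.48%, 4.81% higher and 4.68% lower).

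**Figure D4:**
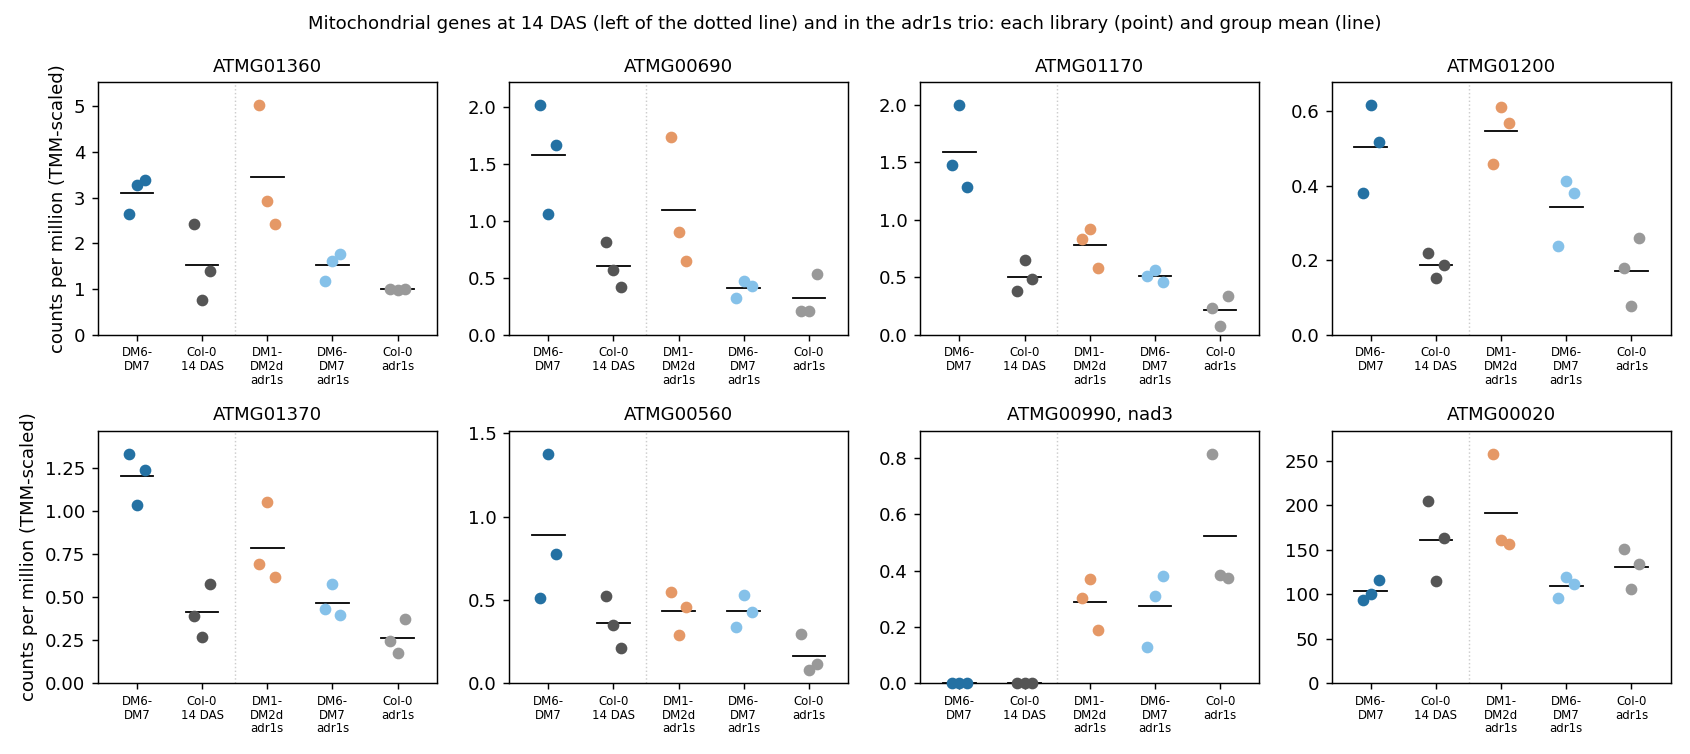
CPM (counts per 1000000) of 8 ATMG genes in the 14 DAS libraries (left of the dotted line) and the adr1s trio, each library a point and each group mean a line, with axes from 0. DM6-DM7 lies above Col-0 for ATMG01360, ATMG00690, ATMG01170, ATMG01200 and ATMG01370, DM1-DM2d adr1s is the highest group of its trio for these 5, and nad3 sits at 0 at 14 DAS.

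**Figure D5:**
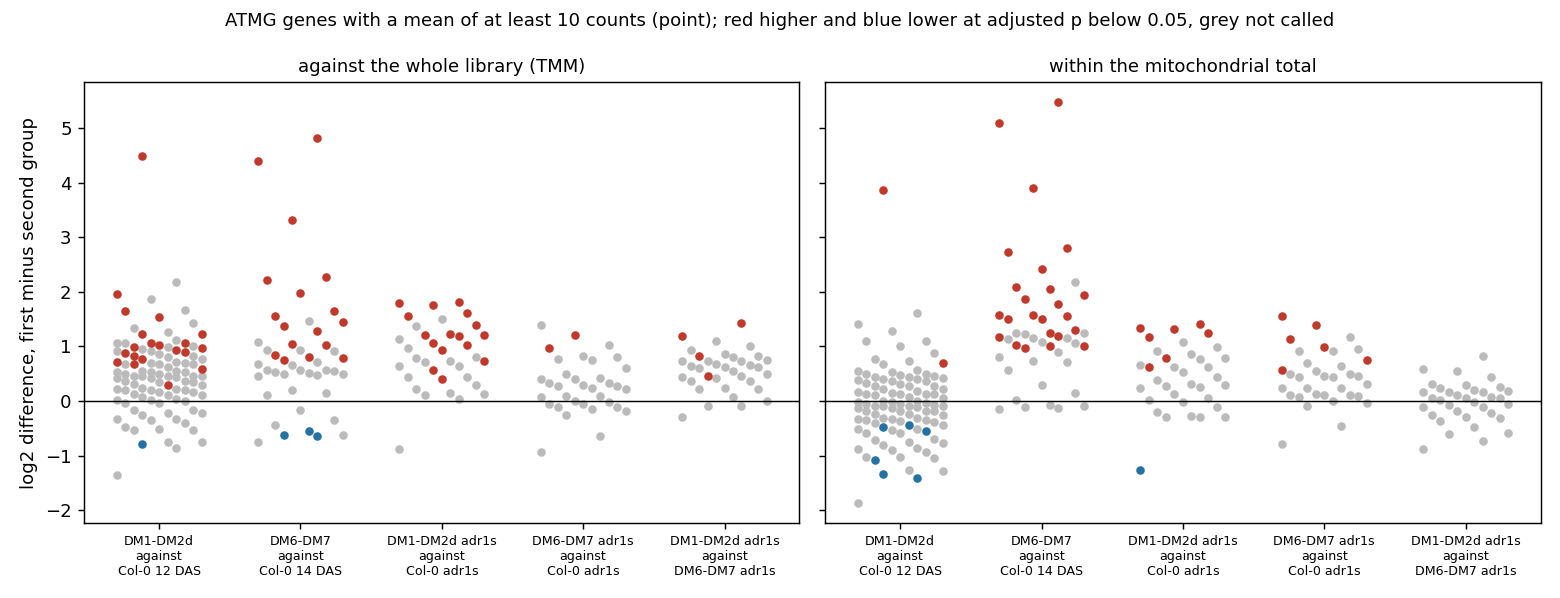
Log2 difference of each ATMG gene with a mean of at least 10 counts in 5 comparisons, against the whole library (left) and within the mitochondrial total (right). Red and blue points passed as higher and lower, grey points did not. Against the whole library the red points outnumber the blue in all 5 comparisons, while within the total blue points outnumber red at 12 DAS.

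Nuclear genes for mitochondrial proteins were listed beside the mitochondrial ones, 84 in all, of which 83 were tested: 42 genes of complexes I to IV, cytochrome c and the ATP synthase, 12 of alternative respiration, 6 of the mitochondrial stress response and 24 of transcription and RNA processing. Of the 42 respiratory genes, 31 were higher and 4 lower in DM1-DM2d at 12 DAS (median log2 0.54), where 36.6% of all genes were higher and 36.4% lower. In DM6-DM7 at 14 DAS 22 were higher and 5 lower (0.21), against 35% and 29.7% of all genes. In the trio 32 were higher and 1 lower for DM1-DM2d adr1s (0.32), against 23.9% and 18.8%, and 8 and 2 for DM6-DM7 adr1s (0.10), against 18.6% and 12.6%. Upper-quartile scaling changed the split to 19 higher and 10 lower at 12 DAS and turned its majority at 14 DAS (12 and 15), so no direction is given for the respiratory genes at 14 DAS. Over all 83 genes tested, 41 were higher and 20 lower at 12 DAS, and 29 and 32 under upper-quartile scaling.

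Complex II, the succinate dehydrogenase that links the citric acid cycle to the chain, had 5 listed genes, and the counts here were the same under each scaling run. All 5 were higher at 12 DAS (median log2 1.58), at 14 DAS (1.05) and with the DM1-DM2d pair in adr1s (0.78), and 4 of 5 with the DM6-DM7 pair in adr1s (0.35). Of all genes tested, 36.6%, 35%, 23.9% and 18.6% were higher in these comparisons, in the same order. For SDH1-1, the flavoprotein subunit, the level was 415 ± 29.4 CPM (SD, n = 3) in DM1-DM2d at 12 DAS and 94.2 ± 8.29 (SD, n = 2) in Col-0, a log2 difference of 2.14. Both cytochrome c genes, which carry electrons from complex III to complex IV, were higher in DM1-DM2d (CYTC-1 by 1.49 on the log2 scale), and CYTC-1 alone was called at 14 DAS (0.40) and in DM1-DM2d adr1s (0.45). At 14 DAS neither passed under upper-quartile scaling.

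The alternative pathway, which bypasses the proton-pumping complexes, was split, with 4 of 11 tested genes higher and 3 lower at 12 DAS and 3 and 3 at 14 DAS. Of all genes, 36.6% were higher and 36.4% lower at 12 DAS, and 35% and 29.7% at 14 DAS. In the trio 5 of the 11 were higher and 3 lower for DM1-DM2d adr1s, against 23.9% and 18.8% of all genes. For DM6-DM7 adr1s 2 were higher and 1 lower, against 18.6% and 12.6%. For AOX1A, the stress-responsive alternative oxidase, the level was 244 ± 15.6 CPM in DM1-DM2d and 60.4 ± 17.7 in Col-0 (SD) (log2 2.01, adjusted p = 1.49e-08), and was higher in DM1-DM2d adr1s (0.70, adjusted p = 0.00109). Its differences of 0.22 in DM6-DM7 and 0.29 in DM6-DM7 adr1s did not pass. The NAD(P)H dehydrogenase gene NDA1 was lower in DM1-DM2d (log2 -4.94) and DM6-DM7 (-3.09), and in the trio with either pair (-2.10 for DM1-DM2d, -1.78 for DM6-DM7).

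The mitochondrial stress response list held 6 genes, of which 4 were higher and 1 lower in DM1-DM2d at 12 DAS, and 3 higher and 0 lower in DM6-DM7 at 14 DAS. In the trio 3 were higher with the DM1-DM2d pair and 2 with the DM6-DM7 pair, and 0 lower with either. Of all genes, 36.6% were higher and 36.4% lower at 12 DAS, and 35% and 29.7% at 14 DAS. The shares were 23.9% and 18.8% for DM1-DM2d adr1s, and 18.6% and 12.6% for DM6-DM7 adr1s. BCS1 (AT3G50930), an outer membrane protein also called OM66, was higher in all 4 comparisons (log2 3.77, 3.62, 4.00 and 4.68).

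Of 24 genes for mitochondrial transcription and RNA processing, 2 were higher and 12 lower in DM1-DM2d at 12 DAS (median log2 -0.41), where 36.6% of all genes were higher and 36.4% lower. Upper-quartile scaling left 17 lower. MORF1, an editing factor, had 14.8 ± 0.745 CPM against 37.8 ± 3.48 (log2 -1.35, adjusted p = 1.38e-08), and MGP3, which encodes a mitochondrial RNA polymerase, was lower by a log2 difference of -1.11 (adjusted p = 5.23e-06). At 14 DAS 5 were higher and 4 lower in DM6-DM7, against 35% and 29.7% of all genes. The trio had 1 higher and 3 lower with the DM1-DM2d pair, against 23.9% and 18.8%. With the DM6-DM7 pair 0 were higher and 2 lower, against 18.6% and 12.6%. MGP3 did not pass in these 3 (log2 -0.12, -0.22 and -0.24). Shoot marker levels and the plastid share, given above, moved with the DM1-DM2d difference, and their part in it was not tested.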

How the data were processed

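RNA of 20 shoot libraries in 7 groups was analysed. The values used are the deposited raw counts, 1 per gene and library, without normalization. Per the labels, libraries were strand-specific and read as pairs. According to the submitters' processing notes, the authors used featureCounts 2.0.1, HISAT2 2.2.1, fastp 0.23.2 and DESeq2 1.34.0 with the build TAIR10; roles are not stated. RNA selection and counting options are not given in the sources used here. The labels call replicates biological but do not say how they were grown apart, so p-values measure the spread between these libraries.

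Counts were fitted with edgeR 4.0.16 (R 4.3.3): 1 fit of all 20 libraries with a term per group, genes kept by filterByExpr at a minimum count of 10 (23349 genes), trimmed mean of M values (TMM) scaling with factors of 0.723 to 1.25, a robust quasi-likelihood test, and Benjamini-Hochberg adjustment over all genes in each of 5 comparisons, at 0.05. CPM are counts per 1000000 of TMM-scaled totals. For the fit within the mitochondrial total, ATMG genes had the library's ATMG count as offset, and the other genomes their own. SE is the log2 difference over the square root of F. A fold against a group at 0 is a bound at 3 counts over the group, which covers counting error only. Shares were compared by exact permutation of log2 values. Their folds, and those of counts per nuclear count, are ratios of geometric means, which can differ slightly from ratios of the printed means. Scripts were tested on simulated data. Relatives came from notes in the TAIR10.1 RefSeq annotation, and copies on chromosome 2 from blastn 2.17.0. No 2 libraries were identical, and 0 columns belonged to other series.

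Named ATMG genes were the most counted tested member of each class and, among called genes with a mean of at least 2 CPM, the 5 highest and lowest within the mitochondrial total and the 3 highest and lowest against the whole library. Nuclear lists gave up to 3 called members of lowest adjusted p. Outside this rule ATMG00070, ATMG00160, ATMG00220, ATMG00270, ATMG00720, ATMG01010, ATMG01080, ATMG01090, ATMG01220, ATMG01280, ATMG01320, ATMG00060 and the relatives were named after their values were seen. The members and lists were chosen with earlier results of these data known. Alternatives were other scalings, filters, DESeq2 1.42.0, fits per batch, a replicate block and leaving out each library. Alternatives that leave out ATMG00020 and ATMG01390, add the relatives or keep only genes with a mean of at least 10 counts were chosen after seeing the data. The count over 42 respiratory genes pools the lists of complexes I to IV, cytochrome c and the ATP synthase, and was added after seeing the data.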

Additional observations from a re-analysis of the deposited data

Results flagged for a closer look

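Within the mitochondrial total, 4 genes of 35 compared lay on opposite sides of their Col-0 group in DM1-DM2d and in DM1-DM2d adr1s, with every library of the line on one side of every control library. That is 11.4% of them, against 12.9% of all 20081 genes compared in the same way, each genome within its own total, so the share is near the background. ATMG00090 had a log2 difference of -0.44 at 12 DAS and 0.63 in the adr1s trio. ATMG00513 had -0.33 and 0.78, ATMG01170 had -0.38 and 1.42, and ATMG01370 had -1.07 and 1.18. At 12 DAS the values of ATMG00513 and ATMG01170 did not pass the test. The difference between the 2 effects was not tested. The 2 sets lie in different label batches, whose mitochondrial totals are made of different genes, so batch and genotype cannot be told apart. For DM6-DM7 and DM6-DM7 adr1s, 0 of 31 genes compared did so, against 1.26% of all genes.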

How the results depend on the processing

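The labels share replicate numbers, but deviations of same-numbered libraries correlated at only -0.106 to 0.18, so the numbers do not pair them. With a replicate block the calls against the whole library were 18, 32, 11, 1 and 0 (in the order 12 DAS, 14 DAS, the DM1-DM2d pair in adr1s, the DM6-DM7 pair in adr1s, each against its control, then both adr1s lines against each other; 21, 35, 18, 2 and 5 without it), and within the mitochondrial total 7, 39, 9, 5 and 1. Counts of calls against the whole library moved by over 1.5 times as follows: upper-quartile scaling gave 9 for DM1-DM2d, fits per batch gave 47 for DM1-DM2d and 10 for DM6-DM7, DESeq2 gave 6 for DM6-DM7 adr1s and 9 between the lines, adding the relatives gave 4 for DM6-DM7 adr1s, and a mean of at least 10 counts gave 20 for DM6-DM7. Within the total, fits per batch gave 38, 15 and 0 for DM1-DM2d, DM6-DM7 and between the lines, DESeq2 gave 5 for DM1-DM2d and 2 between the lines, and a mean of at least 10 counts gave 24 for DM6-DM7 and 0 between the lines. The cause was not tested, other than that a higher minimum leaves fewer genes. With a trimmed mean scaling among ATMG genes DM1-DM2d had 2 higher and 8 lower within the total, and without ATMG00020 and ATMG01390 in the total 4 and 6. The log2 difference of the mitochondrial share was 0.85, -0.14, 0.61, 0.03 and 0.58. It became 0.23 for DM1-DM2d per nuclear count, 0.77 without the most counted gene and 0.21 with the relatives added. Without ATMG00020 and ATMG01390, per nuclear count, it was 0.23, 0.85, 0.90 and 0.30 in the first 4 comparisons, which reversed DM6-DM7. Leaving out 1 library gave 6 to 15, 30 to 35, 8 to 14, 0 to 3 and 0 to 4 calls against the whole library. Within the total it gave 4 to 6, 40 to 45, 8 to 10, 4 to 6 and 0 to 1, and for the share 0.82 to 0.87, -0.35 to 0.07, 0.49 to 0.69, -0.09 to 0.19 and 0.42 to 0.70. Without either Col-0 library of 12 DAS, the lone one is assumed to vary like the other groups. Of 1431 pairs of a named gene's result and a setting, 1152 kept direction and call, 275 lost the call and 4 reversed, and 49 of 101 such results lost the call without at least 1 library. ATMG00070 in DM1-DM2d against the whole library had -0.017 with upper-quartile scaling. In DM6-DM7 within the total, ATMG00080 had -0.14 with trimmed mean scaling among ATMG genes and -0.00062 without the 2 dominant genes, and ATMG00090 had -0.12 with the former. No setting was defined by ribosomal RNA genes, since the annotation used names none. Whether ATMG00020 and ATMG01390, left out of the total in 1 setting, are such genes cannot be told from it. In the 14 DAS and adr1s libraries, low counts limit most ATMG genes.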
